A study of Mus musculus with 6 samples.

Results

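Growth hormone signalling was examined through 8 genes, the receptor gene Ghr, the kinase gene Jak2, the transcription factor genes Stat5a and Stat5b, and the feedback inhibitor genes Socs1, Socs2, Socs3 and Cish, in the embryonic mouse cochlea with and without Igf1. The genes were taken by name, with every probe set of the deposited table that the platform annotation assigns to a single one of them, which gave 16 of 22690 probe sets and 8 of 12393 genes. No probe set annotated to several genes carried any of them. RNA came from cochleae at embryonic day 18.5 of embryos that were wild type, Igf-1 +/+, or null for the gene, Igf-1 -/-, bred from heterozygous parents on a C57BL/6J background, and no agent was given. Each sample pooled 4 cochleae of 2 embryos, dissected with the bony and cartilaginous otic capsule and without the vestibular organs. The gene was disrupted throughout the embryo, so a difference need not originate in the cochlea, and the disrupted part of Igf1 is not named in the labels. Each genotype had 3 independent pools, 1 Affymetrix array per pool, and this small number of arrays limits the precision.

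Growth hormone, released by the anterior pituitary, binds the receptor encoded by Ghr, which activates the associated tyrosine kinase JAK2. JAK2 phosphorylates STAT5A and STAT5B, which enter the nucleus and switch on growth hormone target genes, Igf1 being the best known of them. Cish, Socs1, Socs2 and Socs3 are themselves induced by STAT proteins and encode SH2 domain proteins that damp receptor signalling, and circulating insulin-like growth factor 1 in turn restrains growth hormone release. Much of growth before birth proceeds without growth hormone, while cartilage, bone, muscle and fat are known to carry the receptor.

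The textbook STAT5 target Cish and the STAT target Socs3 carried close to their annotated starts the short palindrome that STAT dimers are known to recognise, and these stretches are shown because they hold the type of site through which STAT5 acts. The motif searched was TTCNNNGAA, which reads the same on both strands, in windows from 250 bases before to 50 bases after each annotated start (RefSeq, build GRCm38.p6). It was present in 8.3% of 32851 windows, and 0.457% held 2 or more matches. Of the 8 genes, 7 had windows, 10 in all, and 2 windows held a match; Socs2 had no entry. Capitals mark the motif in the 2 stretches printed here:
Cish, chr9:107296654-107296683, plus strand: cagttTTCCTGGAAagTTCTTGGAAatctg
Socs3, chr11:117969501-117969530, minus strand: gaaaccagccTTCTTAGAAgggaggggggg
In Cish the 2 matches were separated by 2 bases and covered bases 1 to 20 counted from the annotated start, within the transcript as RefSeq draws it. In Socs3 the single match ran from position -154 to -146 relative to the start. A match describes these letters only, and binding was not measured.

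Levels below are log2 signals after quantile normalization of the arrays, and each difference is null minus wild type, so that 1 is a doubling. Probe sets differ in affinity, so a level is compared between arrays and not between genes. Array medians of the deposited values ran from 5.61 to 6.36. Igf1 itself had every null pool below every wild type pool at its 3 probe sets, with differences of -0.46, -0.55 and -0.99. A label field other than the titles and descriptions gives the wild type genotype for the 3 null pools as well, and gives a slightly later age for wild type replicate 2. The readings of 31 probe sets of 21 genes from tissues outside the dissection (such as sperm, pancreas and kidney) on the 6 arrays served as a measure of background, and their 95th percentile was 3.63, called the background level from here on. The measured defining genes of cartilage, bone, endothelium, neurons, glia and the cochlear supporting epithelium all had mean levels above it. Among hair cell genes, 5 of 12 (Gfi1, Slc26a5, Espn, Cdh23 and Tmc1) did not.

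Across the 8 genes no genotype difference passed the test. With limma, 0 of 22626 probe sets passed a Benjamini-Hochberg adjusted p of 0.05, so the background share called was 0%, and 0 of the 16 probe sets passed, with adjusted p from 0.980 to 0.998. At an unadjusted p under 0.05 limma counted 1130 probe sets, or 4.99%, and again 0 of the 16. With the replicate number as a block, 1 of the 16 (Stat5b 1422102_a_at) was at an unadjusted p under 0.05, where 5.86% of all probe sets were. The same probe set alone was under 0.05 with median centring (5.07% of all), with array weights (7.13%) and without wild type replicate 2 (4.98%). With a pseudocount of 32 it was joined by Cish and Socs3 1455899_x_at, 3 of the 16, where 6.36% of all probe sets were. Adjusted p values in limma for the 16 were 0.661 or more under each alternative run. Signal was higher in the null pools at 10 of the 16 probe sets and lower at 6, with a median difference of 0.085 against 0.0041 over all probe sets. With each gene read at its brightest probe set, 6 genes stood higher and 2 lower, and the median difference was 0.14 against 0.0062 over all genes. Socs3 was read there at 1455899_x_at (0.29), whose suffix marks probes that may bind other transcripts. Its dimmer probe sets gave 0.057 and -0.042, and the dimmer one of Jak2 gave -0.25 against 0.10. On the values as deposited, where the median probe set was shifted by -0.15, 6 of the 16 were higher and 10 lower, and 10 stood above that shift. The 2 genotypes did not overlap at 4 probe sets, 3 with higher signal in the null pools (Cish, 1 of Socs2 and 1 of Socs3) and 1 with lower signal (1 of Stat5b). Over all probe sets the genotypes did not overlap in 10.8%, 5.53% higher and 5.30% lower. On the deposited values only the Stat5b probe set kept this separation, where all probe sets gave 6.37%.

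**Figure D1:**
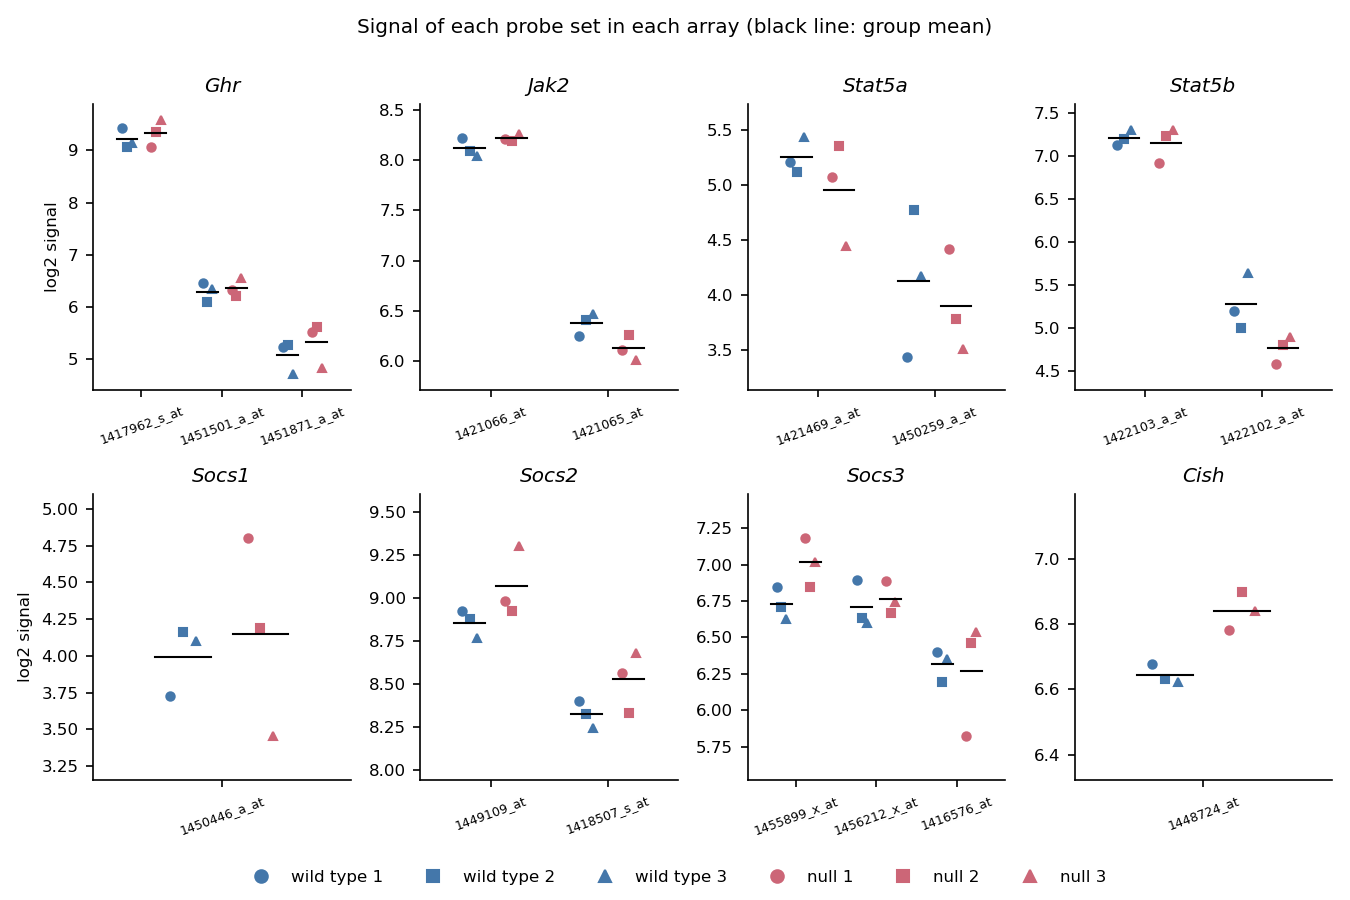
Log2 signal after quantile normalization (vertical axes, each panel with its own range) of the 16 probe sets of the 8 genes in the 6 arrays; blue, wild type; red, null; circle, square and triangle, replicates 1, 2 and 3; black lines, means of 3 arrays. The genotypes are apart for Cish, Socs2 1449109_at, Socs3 1455899_x_at and Stat5b 1422102_a_at, and overlap elsewhere.

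The receptor gene Ghr was read by 3 probe sets, and the genotypes overlapped at each. In mouse, alternative splicing of Ghr yields the membrane receptor and a soluble growth hormone binding protein, and which form each probe set reads is not given in the sources used here. At the brightest (1417962_s_at), wild type replicates 1 to 3 read 9.44, 9.06 and 9.14 and null replicates 1 to 3 read 9.07, 9.36 and 9.59. The highest null pool and the highest wild type pool stood close together, and the lowest values came from wild type replicate 2 and null replicate 1. Wild type averaged 9.21 ± 0.20 (SD, n = 3) and null 9.34 ± 0.26 (SD, n = 3), a difference of 0.13 ± 0.19 (SE). Its 95% interval ran from 78.6% to 152% of the wild type level (limma, adjusted p = 0.987). Between the arrays of title number 14 (replicate 1 of each genotype), Ghr differed by -0.37, and between those of title number 16 by 0.38, in opposite directions; the meaning of this number in the titles is not given. Without null replicate 3 the difference was 0.0043, and without null replicate 1 it was 0.26.

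At 1451501_a_at the wild type pools read 6.45, 6.09 and 6.33 and the null pools 6.32, 6.21 and 6.55, a difference of 0.068 ± 0.16 (SE). At 1451871_a_at the wild type pools read 5.23, 5.28 and 4.71 and the null pools 5.52, 5.62 and 4.82. The pair of replicates 3 lay lowest in both genotypes there, and the difference was 0.24 ± 0.28 (SE), or 0.24 ± 0.11 (SE) with the replicate number as a block. Between same-numbered pools it was 0.28, 0.34 and 0.11, higher in the null pool of all 3 pairs (blocked limma fit, unadjusted p = 0.116 and adjusted p = 0.859). The signal of 1417962_s_at minus that of 1451871_a_at was 4.14 ± 0.33 (SD, n = 3) in the wild type against 4.02 ± 0.65 (SD, n = 3) in the null pools (exact permutation p = 0.8, two-sided).

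Jak2 encodes the kinase that sits on the receptor and starts the signal. Its 2 probe sets pointed in opposite directions. At 1421066_at the wild type pools read 8.22, 8.09 and 8.05 and the null pools 8.21, 8.19 and 8.26. Wild type replicate 1 lay inside the narrow range of the null pools, and the difference was 0.10 ± 0.11 (SE), with an interval from 89.3% to 129% of wild type. At 1421065_at the wild type pools read 6.25, 6.41 and 6.47 and the null pools 6.11, 6.26 and 6.01, a difference of -0.25 ± 0.12 (SE) and an interval from 67.7% to 105%. The overlap came from wild type replicate 1 and null replicate 2, whose values nearly coincided. The gap between the probe sets within an array was 1.74 ± 0.20 (SD, n = 3) in the wild type against 2.09 ± 0.16 (SD, n = 3) in the null pools, and it overlapped between genotypes (exact permutation p = 0.2).

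The STAT5 genes, which carry the signal into the nucleus, included the largest difference of the set. Stat5b at 1422102_a_at read 5.20, 4.999 and 5.64 in wild type and 4.59, 4.81 and 4.90 in null pools. All 3 null pools lay below all 3 wild type pools, though null replicate 3 and wild type replicate 2 were only 0.097 apart. Wild type averaged 5.28 ± 0.33 (SD, n = 3) and null 4.77 ± 0.16 (SD, n = 3), a difference of -0.51 ± 0.21 (SE), or 70.0% of the wild type level with a 95% interval from 48.9% to 100.2%. The exact permutation test gave p = 0.1, the smallest that 3 against 3 arrays allow, and limma an unadjusted p of 0.0508 and an adjusted p of 0.980, or 0.0478 and 0.842 with the replicate number as a block. The difference was -0.62 between the arrays of title number 14 and -0.46 between those of title number 16, and among the alternatives it ran from -0.74 on the deposited values to -0.26 with a pseudocount of 32. It was -0.66 without wild type replicate 2 and -0.34 without wild type replicate 3. In limma the unadjusted p was 0.0468 with the pseudocount, 0.0372 with median centring, 0.0248 with array weights and 0.0288 without wild type replicate 2, with adjusted p of 0.778, 0.935, 0.661 and 0.966.

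The brighter Stat5b probe set did not show it. At 1422103_a_at Stat5b read 7.13, 7.21 and 7.31 in wild type and 6.92, 7.24 and 7.31 in null pools, a difference of -0.059 ± 0.15 (SE) with an interval from 74.2% to 124%. Only null replicate 1 lay below the wild type range. Within each array, the brighter Stat5b probe set exceeded the dimmer by 1.93, 2.21 and 1.67 in wild type and by 2.33, 2.43 and 2.41 in null pools. The genotypes did not overlap in this gap, which differed by 0.46 (exact permutation p = 0.1, or 0.500 after adjustment over the 10 pairs of probe sets of the same gene), and by 0.22 with a pseudocount of 32. Both sets carry the suffix of the array design that marks probes shared by alternative transcripts of a gene, and which transcripts these are is not given here.

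Stat5a, the close relative of Stat5b that lies beside it on chromosome 11, had lower means in the null pools at both probe sets, with wide spreads. At 1421469_a_at the wild type pools read 5.21, 5.12 and 5.44 and the null pools 5.07, 5.35 and 4.45, a difference of -0.30 ± 0.26 (SE). Null replicate 3 stood apart as the low value, and without it the difference was -0.042. At 1450259_a_at the values ran from 3.44 to 4.77 in wild type and from 3.52 to 4.42 in null pools, and 4 of 6 arrays were above the background level. The difference there was -0.22 ± 0.42 (SE), and it was 0.096 without wild type replicate 2.

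**Figure D2:**
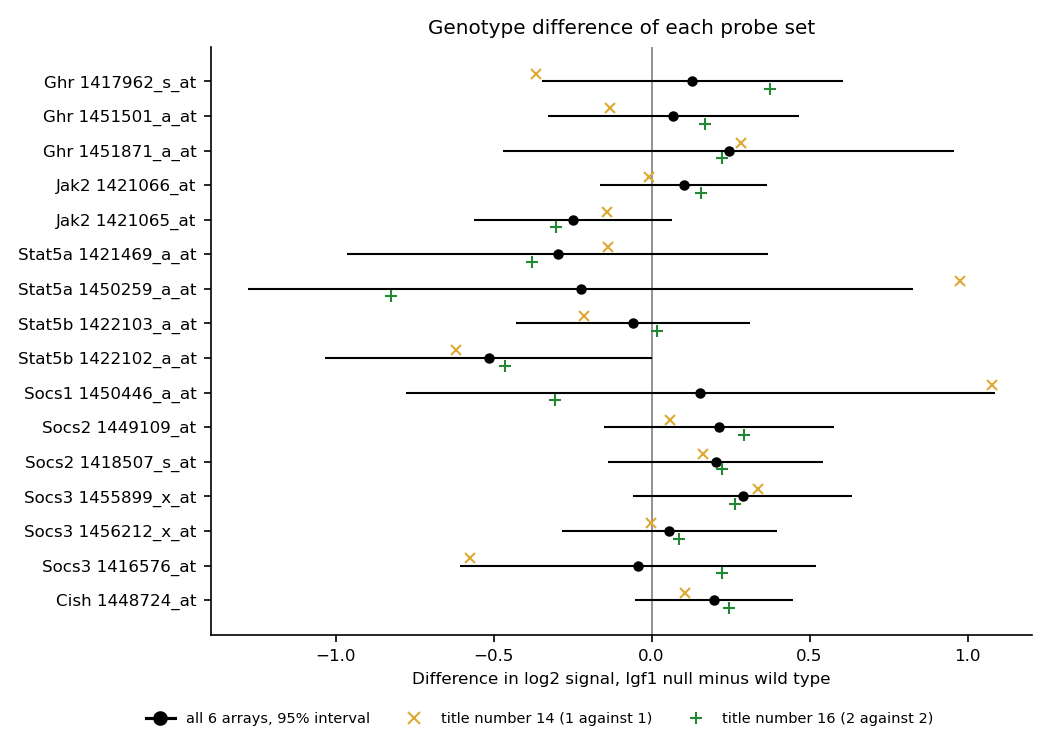
Difference in log2 signal, null minus wild type (horizontal axis), of the 16 probe sets (rows); black points and lines, limma estimate over 6 arrays and its 95% interval; crosses and plus signs, the same difference within the arrays of title numbers 14 and 16. Every interval includes 0, and that of Stat5b 1422102_a_at ends closest to it, running from -1.03 to 0.0027.

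Cish encodes CIS, a feedback inhibitor that binds the phosphorylated receptor and is among the most direct STAT5 targets. Its single probe set, 1448724_at, read 6.68, 6.63 and 6.62 in wild type and 6.78, 6.90 and 6.84 in null pools. All 3 null pools were above all 3 wild type pools, with 0.10 between the nearest values. Wild type averaged 6.64 ± 0.030 (SD, n = 3) and null 6.84 ± 0.059 (SD, n = 3), a difference of 0.20 ± 0.099 (SE), or 115% of wild type with an interval from 96.5% to 136%. The exact permutation p was 0.1, the smallest possible, and limma gave an unadjusted p of 0.0983 and an adjusted p of 0.980. Cish was higher within both title numbers, by 0.10 and 0.24, and with any 1 array left out the difference stayed between 0.17 and 0.23. On the deposited values it was 0.041, where the median probe set stood at -0.15 and the genotypes overlapped.

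Socs2, whose loss in mice is known to cause overgrowth because growth hormone signalling is no longer held back, was read by 2 probe sets that followed each other closely. At 1449109_at the wild type pools read 8.92, 8.88 and 8.77 and the null pools 8.98, 8.92 and 9.30. The genotypes did not overlap, but null replicate 2 exceeded wild type replicate 1 by only 0.0022, and null replicate 3 was alone at the top. The difference was 0.21 ± 0.14 (SE), 116% of wild type with an interval from 90.2% to 149% (exact permutation p = 0.1; limma unadjusted p = 0.194 and adjusted p = 0.980). At 1418507_s_at the wild type pools read 8.40, 8.33 and 8.25 and the null pools 8.57, 8.34 and 8.68, a difference of 0.20 ± 0.13 (SE). Null replicate 2 lay inside the wild type range at this probe set. The gap between both Socs2 probe sets was 0.53 ± 0.016 (SD, n = 3) in the wild type against 0.54 ± 0.11 (SD, n = 3) in the null pools. Without null replicate 3 the differences were 0.097 and 0.12, and on the deposited values 0.089 and 0.072.

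Socs3 encodes an inhibitor best known for restraining receptors that signal through gp130, and its 3 probe sets disagreed. At 1455899_x_at the wild type pools read 6.85, 6.71 and 6.63 and the null pools 7.19, 6.85 and 7.02. Null replicate 2 and wild type replicate 1 met at 6.85, separated by less than 0.001, and the other null pools stood above. The difference was 0.29 ± 0.14 (SE), 122% of wild type with an interval from 96.0% to 155% (exact permutation p = 0.1; limma unadjusted p = 0.0865 and adjusted p = 0.980). At 1456212_x_at the wild type pools read 6.89, 6.63 and 6.60 and the null pools 6.89, 6.67 and 6.74, a difference of 0.057 ± 0.14 (SE). Both carry the suffix for probes that may bind other transcripts. At 1416576_at, which lacks it, the wild type pools read 6.40, 6.19 and 6.35 and the null pools 5.82, 6.46 and 6.53, a difference of -0.042 ± 0.22 (SE). Null replicate 1 was the low value there and the high value at 1455899_x_at, and without it the 1416576_at difference was 0.18. The first 2 probe sets were apart by 0.019 ± 0.062 (SD, n = 3) in the wild type against 0.25 ± 0.061 (SD, n = 3) in the null pools, with no overlap between genotypes (exact permutation p = 0.1, or 0.500 adjusted over the 10 pairs).

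Socs1, an inhibitor of interferon and other cytokine receptors, had the widest range over the 6 arrays of all 16 probe sets. Its probe set 1450446_a_at read 3.72, 4.16 and 4.10 in wild type and 4.80, 4.19 and 3.46 in null pools, and 5 of 6 arrays were above the background level. The null pools ran both above and below all wild type pools. The difference was 0.15 ± 0.37 (SE), with an interval from 58.4% to 212% of wild type, and it was 1.08 between the arrays of title number 14 and -0.31 between those of title number 16.

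The position and width of the intervals together give the size of change that these values still allow. For 13 of the 16 probe sets the 95% interval lay inside a 2-fold change in either direction, and for 8 it lay inside 1.5-fold, where 61.1% and 39.0% of all probe sets did. The 3 that allowed a 2-fold change were Stat5a 1450259_a_at, Stat5b 1422102_a_at and Socs1.

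Growth hormone transcript itself varied between pools far more than any of these 8 genes. Gh is expressed by somatotroph cells of the pituitary, an organ outside the labelled dissection. At all 4 of its probe sets the 3 wild type pools and null replicate 3 had similar levels, null replicate 2 was far above them and null replicate 1 far below. At 1460613_x_at Gh read 7.28, 7.60 and 7.93 in wild type and -9.59, 13.18 and 7.44 in null pools. At 1460310_a_at Gh read 6.39, 7.23 and 6.98 in wild type and -5.01, 12.69 and 6.12 in null pools. Of these, 1460613_x_at carries the suffix for probes that may bind other transcripts, and 1460310_a_at lacks it. As deposited, the 1460613_x_at signal in null replicate 1, -10.39, was the lowest of all tested probe sets on that array. The null replicate 1 values are below the background level, so no fold is given against them. Pomc, the corticotropin precursor gene, had its highest and lowest values in the same pools as Gh, reading 6.16, 6.12 and 5.98 in wild type and 3.29, 10.15 and 6.14 in null pools. Cga, the shared subunit of several pituitary hormones, read 8.32 in null replicate 2 and between -3.91 and -0.53 in the other 5 pools, and Tshb read 8.55 against 2.74 to 3.86. Of 8 measured pituitary genes, 4 had mean levels not above background (Prl, Cga, Fshb and Ghrhr), and the mean over all 8 ran from 2.49 to 3.34 in wild type and from 0.56 to 6.46 in null pools.

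Null replicates 1 and 2, at the extremes of Gh, differed by between -0.64 and 0.64 at the 16 probe sets. They differed by 0.057 and 0.23 in Socs2 (higher in replicate 1), by -0.12 in Cish and by -0.28 in Ghr 1417962_s_at (both higher in replicate 2). Null replicate 3, whose Gh signal was like that of the wild type pools, had the highest values at both Socs2 probe sets and at 2 of the 3 Ghr probe sets, and null replicate 2 had the highest at the other, 1451871_a_at. Without null replicate 2 the differences between genotypes were 0.17 for Cish, 0.29 and 0.30 for Socs2, 0.37 for Socs3 1455899_x_at and -0.54 for Stat5b 1422102_a_at, none past the threshold in limma. The transcript in a dissected pool says nothing about the hormone that reached the cochlea before dissection, which was not measured.

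**Figure D3:**
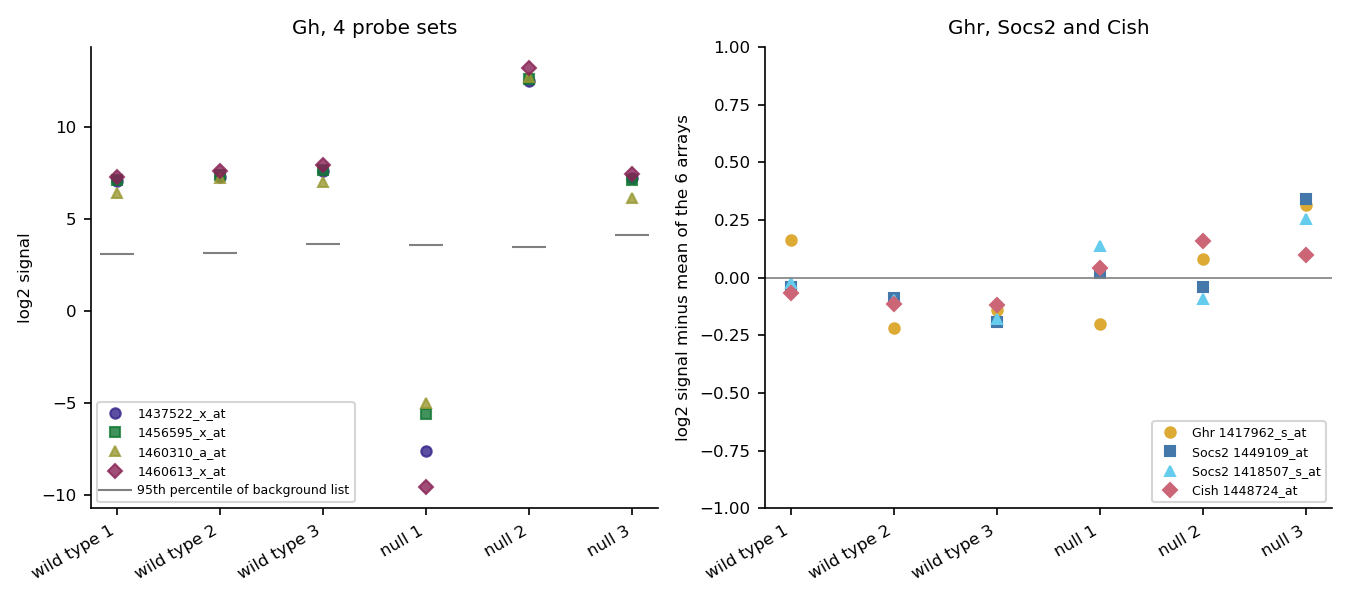
Left, log2 signal of the 4 Gh probe sets in each of the 6 arrays (points), with the 95th percentile of background probe sets on that array (grey bars); right, log2 signal of Ghr, Socs2 and Cish minus its mean over the 6 arrays, on a scale from -1 to 1. Gh ran from -9.59 to 13.18, whereas Ghr, Socs2 and Cish spanned at most 0.54 from lowest to highest array at each probe set shown.

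Other genes of the pathway were read from 6 lists, each gene at its brightest probe set, and 0 genes of any list passed the adjusted threshold in limma. Over all 12393 genes 4.46% had an unadjusted p under 0.05, 2.23% higher and 2.24% lower. In the growth hormone axis, 8 of 11 measured genes were lower and 3 higher (median -0.39, or -0.022 with a pseudocount of 32); 6 of the 11 had mean levels not above background. Igf1 was the 1 member at an unadjusted p under 0.05 (0.0116). The somatostatin receptor gene Sstr2 had means of 4.37 ± 0.52 (SD, n = 3) and 3.80 ± 0.17 (SD, n = 3), and Gpld1 of 4.59 ± 0.23 (SD, n = 3) and 4.83 ± 0.15 (SD, n = 3). Ghrh, the hypothalamic releasing hormone gene, had means of 2.28 and 3.40, not above background. The acid labile subunit gene Igfals, a liver target of growth hormone, was not above background either.

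Signal of other JAK and STAT genes was higher in the null pools for 3 of 7 and lower for 4 (median -0.018), with 0 members at an unadjusted p under 0.05 in limma. On the deposited values, with the shift of -0.14 over all genes, 7 of 7 were lower (median -0.20), and with single arrays left out the median ran from -0.13 without null replicate 2 to 0.062 without null replicate 1. Tyk2 differed by 0.12 ± 0.24 (SE), Stat6 by -0.059 ± 0.13 and Jak3 by -0.066 ± 0.28, while Stat4 was not above background. Genes of other cytokine receptors that use JAK2 or gp130 had 10 of 14 higher, 4 lower and a median of 0.057. Mean levels were not above background for 5 of the 14 (Il6ra, Csf2rb, Il3ra, Il5ra and Csf3r). Again 0 members were at an unadjusted p under 0.05 in limma. The gp130 gene Il6st differed by -0.19 ± 0.15 (SE) and the ciliary neurotrophic factor receptor gene Cntfr by -0.28 ± 0.26, and Il5ra and Csf2rb were not above background. The receptor list's median turned to -0.11 with the values as deposited and to -0.093 without null replicate 2.

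The wider SOCS box family and its ubiquitin ligase partners had 11 of 15 genes lower and 4 higher, with a median of -0.11, against 0.0062 over all genes, and 9 lower with median centring. Socs7 stood furthest, at 4.56 ± 0.18 (SD, n = 3) in the wild type against 2.83 ± 0.45 (SD, n = 3) in the null pools (limma unadjusted p = 8.97e-04, adjusted p = 0.687). The null mean is not above background, so the size of this difference is not determined. Socs5 differed by -0.23 ± 0.13 (SE), Asb8 by -0.22 ± 0.15 and Spsb3 by 0.21 ± 0.12. Adaptor, phosphatase and PIAS genes were evenly divided, 13 of 24 higher and 11 lower, with a median of 0.0060, or -0.13 on the deposited scale with its shift of -0.14. Sh2b2, which encodes an adaptor that binds JAK2, read 4.31 ± 0.44 (SD, n = 3) in the wild type against 5.23 ± 0.39 (SD, n = 3) in the null pools (limma unadjusted p = 0.0279, adjusted p = 0.961). Its relative Sh2b3 differed by 0.49 ± 0.23 (SE), the adaptor gene Shc1 by -0.21 ± 0.13 and Pias3, an inhibitor of activated STAT proteins, by 0.17 ± 0.12.

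Genes known to respond to STAT5 in other tissues were also divided, with 11 of 25 measured members higher, 14 lower and a median of -0.035 (0.021 with median centring), and 9 had mean levels not above background. Apart from Igf1, which the genotype itself alters, 0 were at an unadjusted p under 0.05 in limma. The list was not split by whether STAT5 induces or represses a gene, so its count and median do not measure STAT5 activity. Bcl6, which STAT5 represses, had means of 5.79 ± 0.27 (SD, n = 3) and 5.41 ± 0.35 (SD, n = 3), a difference of -0.38 ± 0.24 (SE). Il2ra, with means of 2.00 and 3.19, and Onecut1, with 1.53 and 0.77, were not above background. Wap, also not above background, is itself among the genes that set the background level.

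**Figure D4:**
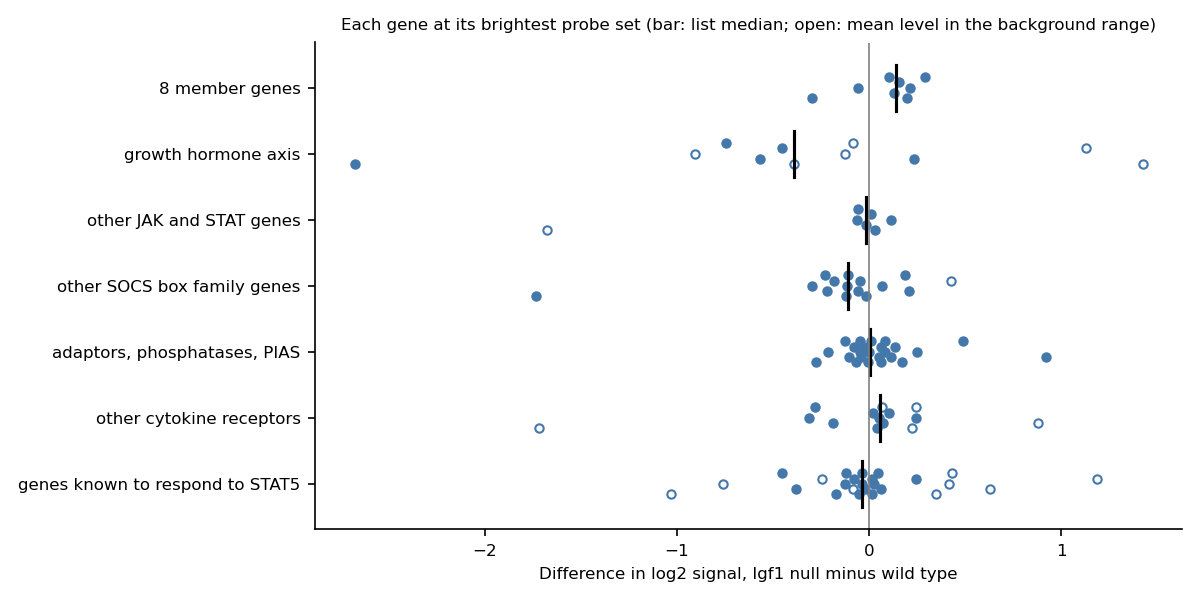
Difference in log2 signal, null minus wild type (horizontal axis), of each gene at its brightest probe set (points) for the 8 genes and the 6 lists of other pathway genes (rows); open points, genes whose mean level is not above background; black bars, medians. The medians of the lists run from -0.39 for the growth hormone axis to 0.057 for other cytokine receptors, against 0.14 for the 8 genes.

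Marker genes of tissues in the dissection, and of liver outside it, were read beside these values. In pooled tissue fewer cells of a type and less RNA per cell cannot be told apart. Of 14 cartilage genes 14 were lower in the null pools (median -0.33), or 13 with median centring (median -0.27), with list means from 10.37 to 10.86 in wild type and from 9.97 to 10.41 in null pools. The lowest null mean, in null replicate 3, includes a Col10a1 reading of -0.92. Col10a1 read 8.48 and 7.98 in null replicates 1 and 2, and 6.79, 7.68 and 7.56 in wild type. Of 7 bone genes 7 were lower (median -0.23), or 5 with median centring (median -0.095), with means from 10.02 to 10.23 and from 9.41 to 10.03. All measured genes of both had mean levels above background, though Col10a1 was below it in null replicate 3. Runx2, Bglap and Spp1 of the bone list were not measured by a single-gene probe set. No marker gene passed the adjusted threshold. Muscle genes had 7 of 11 higher and adipocyte genes 3 of 6, with medians of 0.0052 and 0.13. Macrophage genes had 7 of 11 higher (median 0.063) and lymphocyte and neutrophil genes 7 of 12 (median 0.34, or 0.0086 with a pseudocount of 32), with T and B cell genes Cd3e, Cd3g, Cd4, Cd8a and Cd79a not above background. Hair cell genes had 10 of 12 higher (median 0.19), supporting epithelium genes 7 of 10 (0.24), erythroid genes 4 of 10 (-0.25), endothelial genes 2 of 12 (-0.14), neuronal genes 4 of 12 (-0.15), glial genes 2 of 6 (-0.052) and liver genes 4 of 8 (0.29, or 0.0020 with the pseudocount); on the deposited scale, with its shift, the medians of the muscle (-0.10), macrophage (-0.098) and hair cell (-0.052) lists turned below 0. Mean levels were not above background for 7 of the 8 liver genes, 4 of the 10 erythroid genes and 8 of the 12 lymphocyte and neutrophil genes. The same held for 1 of the 6 adipocyte genes, Lep. The mean of the Y-linked genes ran from 0.74 to 3.05 in wild type and from 1.36 to 4.50 in null pools, and it overlapped between genotypes. With Y-linked signal as a covariate the differences were 0.19 for Cish, 0.17 and 0.21 for Socs2, 0.36 for Socs3 1455899_x_at and -0.52 for Stat5b 1422102_a_at. Of the 5 measured Y-linked genes, 4 (Eif2s3y, Kdm5d, Sry and Usp9y) had mean levels not above background. How well this covariate follows the sex of the pooled embryos is therefore not known. As a sign of RNA quality, the beta-actin control signal at the 3' end minus that at the 5' end averaged 0.73 ± 0.075 (SD, n = 3) in wild type arrays, against 0.94 ± 0.18 (SD, n = 3) in null arrays, and overlapped (exact permutation p = 0.2). For the Gapdh control it averaged 0.25 ± 0.044 (SD, n = 3) against 0.33 ± 0.13 (SD, n = 3), and overlapped (exact permutation p = 0.4). Null replicate 3 had the highest value of both controls, 1.12 for beta-actin and 0.43 for Gapdh. The part of other tissues, pool makeup and RNA quality in the values of the 8 genes was not tested.

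For the 6 of the 8 genes whose brightest probe set lay above the median level, the genes of most similar profile were sought among 7101 others above that level, by the root mean square difference over the 6 arrays after each profile was centred on its own mean. Closest to Cish were Bod1l (0.017) and Dicer1 (0.018), and closest to Ghr were Stk26 (0.027) and Zfp101 (0.034). For Jak2 they were Abca1 (0.016) and Atf2 (0.023), for Stat5b Glis2 (0.029) and Kdelr1 (0.033), for Socs2 Hdgfl2 (0.038) and Zfp322a (0.050), and for Socs3 Bola2 (0.045) and Bud31 (0.050). None of these 12 genes belongs to the set of 8. With 6 arrays and 7101 candidates, near matches of this kind are a description only.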

How the data were processed

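The deposited table holds 1 log2 signal per probe set and array; base 2 follows from the spread of the deposited values, and how the authors summarised, background-corrected or scaled them is not given in the sources used here. RNA was labelled as biotinylated cRNA, per the labels' protocols. Groups and replicate numbers came from the sample titles. The arrays were not on a common scale, so 22626 probe sets (64 controls left out) were quantile normalized, with no filter on level. The genotype term was fitted by limma 3.58.1 under R 4.3.3 (lmFit and eBayes, no covariate, two-sided, Benjamini-Hochberg over all probe sets), a procedure tested on simulated data. Single values used the exact permutation test over the 20 splits. Of all probe sets, 20380 carried 1 gene in the platform annotation, 691 several and 1555 none; 29 single-gene probe sets had no RefSeq match and no symbol changed. Same-numbered pools of both genotypes deviated together from their group means (correlations of 0.19, 0.38 and 0.14 over 11313 probe sets). Between differently numbered pools the correlations ran from -0.26 to 0.086. On this basis the replicate numbers were taken to pair the pools, which the titles do not state. P-values from the blocked limma fit thus depend on a choice made from these same data. Standard errors and permutation tests leave the pairing out unless a block is named.

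Genes named beyond the 8 were up to 4 of each pathway list by smallest p, Igf1, Gh and the 2 nearest profiles of each gene above the median level; the other pituitary genes, Igfals and genes listed as not above background were picked once their values had been seen. The 8 genes and all lists were chosen with earlier results of these data known. Pools are separate by design, so p-values measure the spread between pools.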

Additional observations from a re-analysis of the deposited data

How the results depend on the processing

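In each alternative run (values as deposited, median centring, blocks, array weights, robust eBayes with a trend, a pseudocount of 32, a filter at the 40th percentile, a Y-linked covariate and each array left out), 0 probe sets passed the adjusted threshold of 0.05 in limma. At an adjusted p under 0.1 the count was 0 without these changes, 3 with the Y-linked covariate, 1 without null replicate 3 and 0 in the other alternatives, and none of those 3 or 1 was of the 8 genes. At an unadjusted p under 0.05 the count was 1130, and 673 (with the filter) to 1613 (with array weights) in the alternatives. The filter left fewer probe sets to test, so its count is not on the same base as the others. With the replicate block the count was 0 past the adjusted threshold and 1327 unadjusted. The pairing changed no call at the adjusted threshold. Of the 16 probe sets it brought Stat5b 1422102_a_at under an unadjusted p of 0.05 (0.0478 in limma). Of 251 values of the 16 probe sets under alternatives, 236 kept their direction, for 9 probe sets all of them. The smallest adjusted p in limma was 0.661. Blocks, robust eBayes with a trend and the filter leave each difference itself unchanged. Their values could therefore not turn, and the 236 include them. On the values as deposited, shifted by -0.14 over all genes, the sign turned for Ghr 1451501_a_at (-0.089), Jak2 1421066_at (-0.022), Socs1 (-0.12) and Socs3 1456212_x_at (-0.10); with array weights it turned for Ghr 1451501_a_at (-0.0025). Without the pair of title number 14 arrays it turned for Stat5b 1422103_a_at (0.018), Socs1 (-0.31) and Socs3 1416576_at (0.22). With single arrays left out, values ran from -0.034 to 0.15 for Ghr 1451501_a_at, from -0.57 to 0.096 for Stat5a 1450259_a_at, from -0.14 to 0.060 for Stat5b 1422103_a_at, from -0.17 to 0.50 for Socs1, from -0.0055 to 0.15 for Socs3 1456212_x_at and from -0.17 to 0.18 for Socs3 1416576_at. The median over the 8 genes, 0.14, was -0.0090 as deposited, 0.16 with median centring, 0.11 with the pseudocount, 0.16 with the filter, which left 6 genes, 0.20 without title number 14, 0.12 when a gene's probe sets were averaged, and 0.090 to 0.18 with single arrays left out; apart from the shift and the loss of genes, the cause was not tested. Signal over background limits Stat5a 1450259_a_at and Socs1.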
